A study of Mus musculus with 9 samples.

Results

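The muscle cell membrane, or sarcolemma, is held to the cytoskeleton and patched after injury by 9 genes described here across 9 left ventricles: Trim72, Dysf, Cav3, Dmd, Sgca, Sgcb, Sgcd, Dag1 and Anxa6. Their probe sets were found by gene symbol in the authors' annotation, 10 probe sets in all, and where a gene had several the brightest on average was used. They are 9 of 23037 genes tested. RNA came from male mice, 1 array per sample. The 3 groups of 3 arrays were wild-type mice fed enough vitamin A (WT_VAS), LRAT -/- mice fed the same (LRAT_VAS) and LRAT -/- mice fed a diet deficient in it (LRAT_VAD). Mice ate the diets for 50 days, and the sufficient one had 250000 U/kg of retinol palmitate added. Lrat makes the retinyl esters in which vitamin A is stored. Strain, age and the nature of the mutation are not given in the sources used here, no group analysed here combines wild type with the deficient diet, and nothing says whether same-group arrays came from separate litters. P-values therefore measure only the spread between these samples.

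Trim72 is a muscle ubiquitin ligase of the tripartite motif family that carries vesicles to a wound in the membrane, where they fuse into a patch together with dysferlin (Dysf) and caveolin-3 (Cav3). Annexin A6 (Anxa6) binds calcium and phospholipid and gathers at the wound in muscle. The dystrophin complex works before any injury: dystrophin (Dmd) ties actin to dystroglycan (Dag1), dystroglycan binds laminin outside the cell, and the sarcoglycans (Sgca, Sgcb, Sgcd) sit beside it in the membrane. In the mouse and in people, loss of these proteins gives muscular dystrophy or cardiomyopathy.

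Trim72 lies on chromosome 7. The 250 bases before its annotated start are shown because the study varies vitamin A, whose active form acts through retinoic acid receptors that bind repeats of AGGTCA. The capitals mark AGGTCA, searched on both strands with overlaps allowed. The sequences are RefSeq's for GRCm38.p6, the Trim72 window being chr7:128004128-128004377 on the plus strand, and the Cav3 and Dysf stretches surround the single match in each of those genes.
Trim72: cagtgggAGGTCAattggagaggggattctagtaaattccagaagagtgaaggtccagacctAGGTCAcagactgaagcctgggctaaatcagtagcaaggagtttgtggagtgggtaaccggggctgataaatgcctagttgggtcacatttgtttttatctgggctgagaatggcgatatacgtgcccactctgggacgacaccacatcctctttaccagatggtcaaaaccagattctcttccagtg
Cav3: acatgtgccaAGGTCActcaggagct
Dysf: cagaggtggaAGGTCAggggtggagc

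The Trim72 window held AGGTCA at 243 and 188 bases before the start. The Cav3 stretch is chr6:112459330-112459355 and the Dysf stretch chr6:84008488-84008513, both on the plus strand. Windows were found for 8 of the 9 genes, 11 windows in all, and 3 of the 11 held the letters. Of all 32851 windows of this length 14.0% held at least 1 match and 1.36% at least 2. The E-box letters CANNTG, which muscle regulators of the MyoD family bind, were present in 7 of the 11 windows, 3 times in that of Trim72, and in 66.2% of all windows. These matches are letters in a window and say nothing of whether a receptor binds there.

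The arrays were alike in scale, with medians of 6.38 to 6.43 on the log2 scale and Pearson correlations over genes of 0.991 to 0.997 within groups and 0.990 to 0.997 between groups. On the first principal component of all genes wild-type arrays 1 and 2 stood apart from the other 7 arrays, at -28.5 and -17.5, and wild-type array 3 lay at 4.49, within the span of the arrays labelled Lrat-/- (0.48 to 15.3). On the second component wild-type array 3 was the highest, at 22.7, apart from all the others (-17.8 to 7.42). The label check went against the genotype: the Lrat signal was 5.73 to 5.81 on the wild-type arrays, 7.29 to 7.38 on those labelled LRAT_VAS and 6.78 to 6.96 on those labelled LRAT_VAD. All of these lie under 7.53, the 95th percentile of 5222 negative control probe sets, and the sources used here do not say whether these probes target deleted sequence. The Lrat difference between WT_VAS and LRAT_VAS was 1.57 ± 0.07 (limma, adjusted p = 1.86e-05). Each genotype below is that of the label. All 9 genes had signals above 7.53 on every array, and the second Anxa6 probe set (10385993), at 6.27 to 6.51, did not. The 12 cardiomyocyte markers, Myh6 and Tnnt2 among them, averaged 13.0 to 13.2 on every array, and 11 of the 12 skeletal muscle markers, Myod1 and Myh4 among them, lay under 7.53, all but Tnni2.

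**Figure D1:**
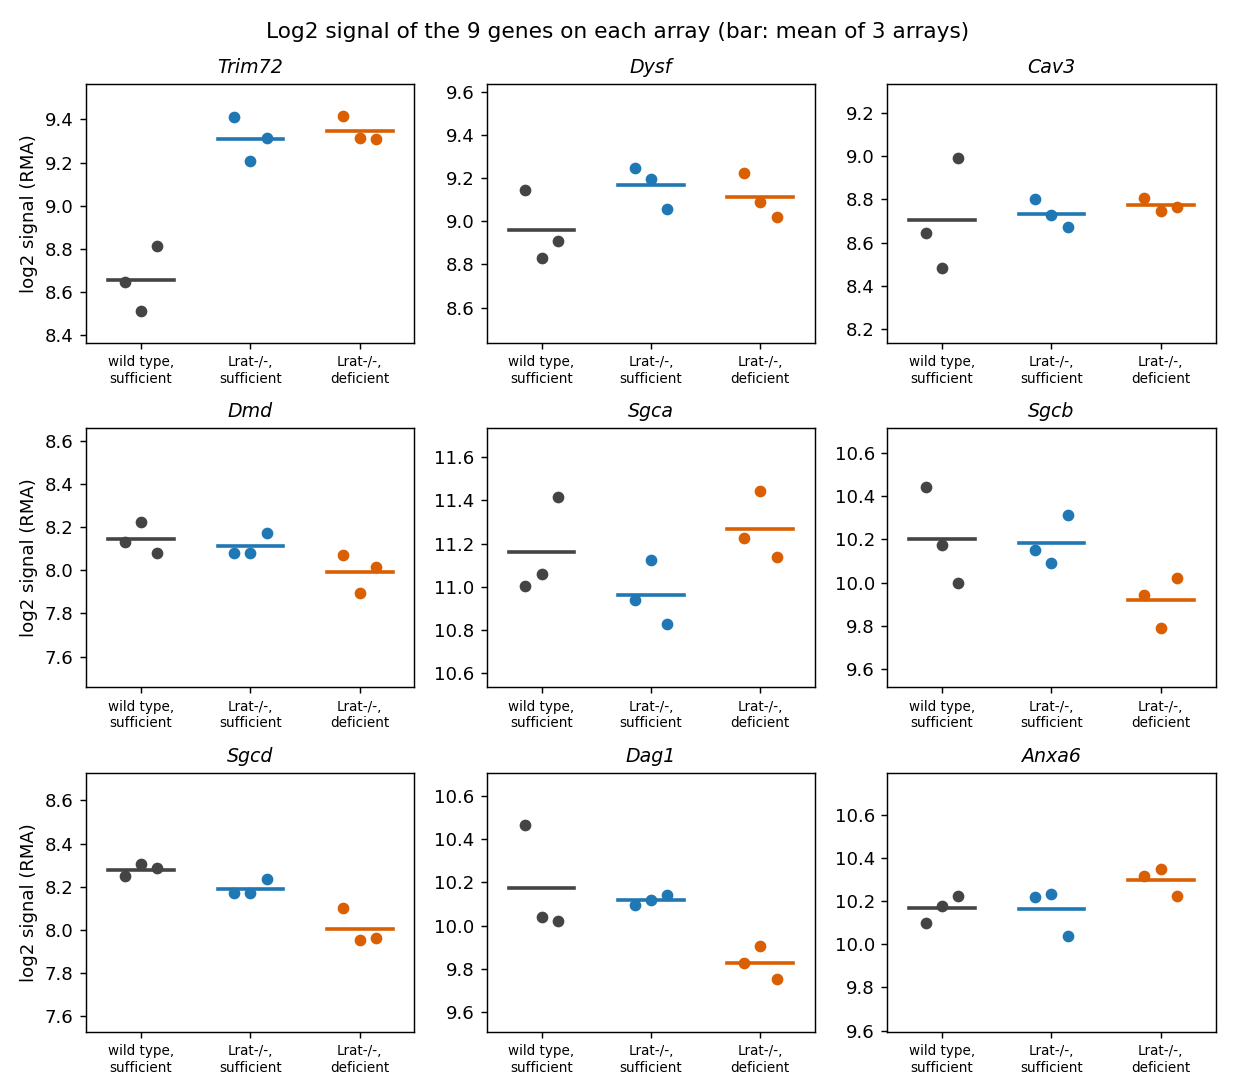
Log2 signal (RMA, vertical axes, each spanning the same range of values) of the 9 genes on each of the 9 arrays by group. Points are arrays and bars are means of 3 arrays. All 6 arrays labelled Lrat-/- lie above the 3 wild-type arrays for Trim72, and the deficient arrays lie lowest for Sgcd and Dag1.

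The set was chosen by the signal of Trim72, selected on its difference between the genotype labels on the sufficient diet, so its genotype values are a description without a test. Its log2 signal was 8.65, 8.51 and 8.81 on wild-type arrays 1 to 3. On the LRAT_VAS arrays it was 9.41, 9.21 and 9.31, and on the LRAT_VAD arrays 9.42, 9.31 and 9.31. Every array labelled Lrat-/- thus lay above every wild-type array, and the spans of the diets overlapped. The group means were 8.66 ± 0.15 (SD, n = 3), 9.31 ± 0.10 and 9.35 ± 0.06. The log2 difference from wild type was 0.65 ± 0.09 (SE) for LRAT_VAS, a ratio of 1.57, and 0.69 ± 0.09 for LRAT_VAD, a ratio of 1.61. Both differences use the same 3 wild-type arrays. The ratios in the authors' deposited table were smaller, 1.46 and 1.47. Leaving out 1 array at a time gave 0.58 to 0.73 on the sufficient diet, the highest without wild-type array 3.

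If Trim72 was chosen on that genotype contrast, the deficient arrays did not enter the choice, but the LRAT_VAS arrays did. The diet comparison uses the LRAT_VAS arrays too. A choice on high LRAT_VAS values can push the diet difference down, so its test and interval are not independent of that choice. The deficient minus sufficient difference was 0.04 ± 0.09 (SE), with a 95% confidence interval from -0.17 to 0.24, and did not pass (limma, adjusted p = 0.982 over all genes). On the linear scale the interval runs from 0.891 to 1.18 times the level on the sufficient diet. The authors' deposited table gives 1.01 for this ratio.

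Red blood cell markers were higher with the same labels as Trim72. The mean log2 signal of 6 such markers, among them Alas2 of heme synthesis, ranged from 8.04 to 8.58 on wild-type arrays, 8.82 to 9.10 on LRAT_VAS arrays and 9.0 to 9.96 on LRAT_VAD arrays, without overlap between wild type and the others. Averaged over all 9 arrays 4 of these 6 genes lay under 7.53, Slc4a1 and Ahsp among them, although the means of both were above it in LRAT_VAS (7.59 and 7.67) and LRAT_VAD (8.03 and 8.54). Of the 6 genes 0 passed the test. Their part in the Trim72 difference was not tested. In bulk tissue fewer cells of a type and less RNA per cell cannot be told apart.

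None of the other repair genes Dysf, Cav3 and Anxa6 passed the threshold in any comparison. Dysf, the calcium sensor that drives vesicle fusion, was at 9.14, 8.83 and 8.91 in wild type, 9.25, 9.20 and 9.06 in LRAT_VAS and 9.22, 9.09 and 9.02 in LRAT_VAD. Wild-type array 1 lay among the arrays labelled Lrat-/-, so the groups overlapped. Its genotype difference on the sufficient diet was 0.21 ± 0.10 (limma, adjusted p = 0.735; 95% interval -0.02 to 0.43), and its diet difference -0.06 ± 0.10.

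Cav3, the muscle caveolin that binds both dysferlin and Trim72, was at 8.65, 8.48 and 8.99 in wild type, 8.80, 8.73 and 8.67 in LRAT_VAS and 8.81, 8.75 and 8.76 in LRAT_VAD. The wild-type arrays spanned all others. The differences were 0.03 ± 0.12 for genotype and 0.04 ± 0.12 for diet, with intervals of -0.23 to 0.29 and -0.22 to 0.30. Anxa6 was at 10.10, 10.18 and 10.22 in wild type, 10.22, 10.23 and 10.04 in LRAT_VAS and 10.32, 10.35 and 10.22 in LRAT_VAD. Its deficient arrays were the highest but overlapped the sufficient ones, with a diet difference of 0.13 ± 0.08 and a genotype difference of -0.0027 ± 0.08. The diet difference was 0.03 with the mean of both Anxa6 probe sets and 0.07 without LRAT_VAS array 3.

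Among the genes of the dystrophin complex none passed for genotype on the sufficient diet. Dmd was at 8.13, 8.22 and 8.08 in wild type and 8.08, 8.08 and 8.17 in LRAT_VAS, a difference of -0.03 ± 0.07. Sgca differed by -0.20 ± 0.13, Sgcb by -0.02 ± 0.12, Sgcd by -0.09 ± 0.07 and Dag1 by -0.06 ± 0.11. The Sgca difference was -0.07 without wild-type array 3 and -0.13 without LRAT_VAS array 3. Sgcd was the one gene of the 8 besides Trim72 whose groups did not overlap, at 8.25, 8.30 and 8.29 in wild type and 8.17, 8.17 and 8.23 in LRAT_VAS. Of all genes 7.97% had groups without overlap, and 4.28% had them with the lower values in LRAT_VAS. Of the 8 genes besides Trim72 0 passed in limma and 0 had an unadjusted p under 0.05, against 0.135% and 6.91% of all genes. Their median difference was -0.03, beside -0.00097 over all genes. The 95% intervals of the 8 genes lay between -0.49 (Sgca) and 0.43 (Dysf), so ratios from 0.712 to 1.35 remain possible at this number of arrays.

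**Figure D2:**
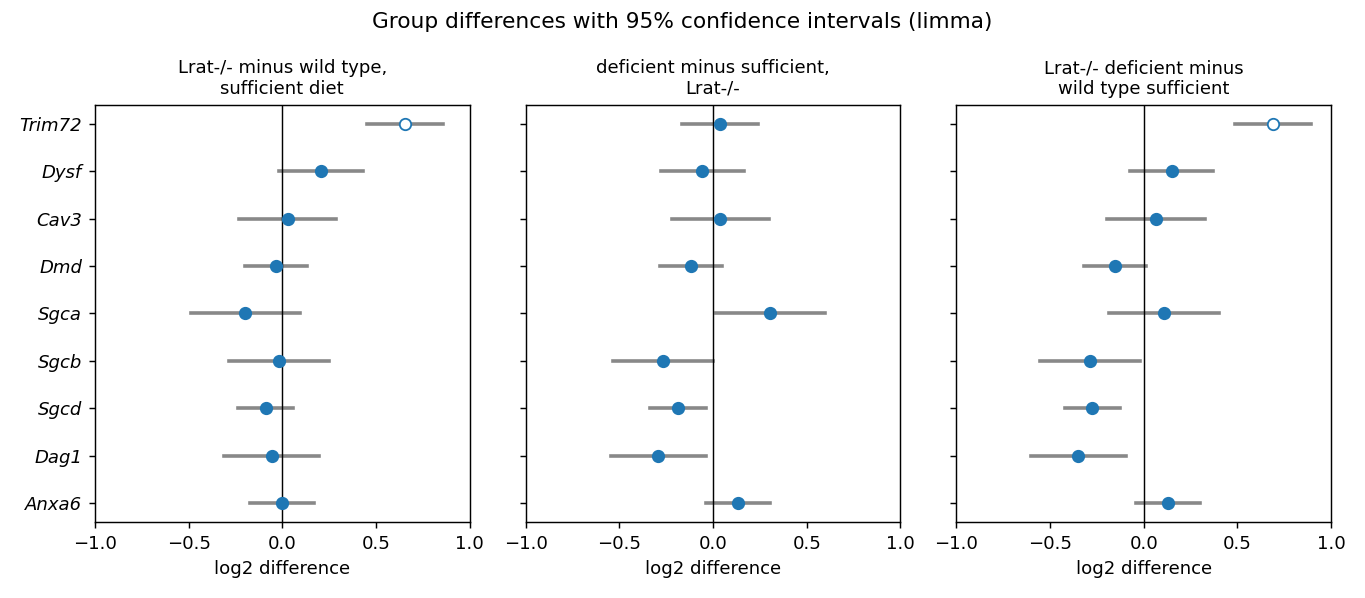
Log2 difference (horizontal axes) between groups for the 9 genes in 3 comparisons. Points are limma estimates from 3 arrays a group and lines are 95% confidence intervals, and open points mark Trim72 where it is a description without a test. Any line on an open point takes no account of how Trim72 was chosen and is not to be read as a test. Trim72 lies at 0.65 and 0.69 against wild type and at 0.04 between diets.

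Between the diets, within arrays labelled Lrat-/-, none of the genes for dystroglycan, dystrophin and the sarcoglycans passed the threshold, and their differences ran in both directions. Dag1 was at 10.10, 10.12 and 10.14 in LRAT_VAS and 9.83, 9.90 and 9.75 in LRAT_VAD. All deficient arrays were lower, by -0.29 ± 0.11 (SE; limma, unadjusted p = 0.0295, adjusted p = 0.959). Wild-type array 1, at 10.46, was the highest of all 9 arrays, and the other wild-type arrays, at 10.04 and 10.02, lay just under the LRAT_VAS arrays.

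Sgcd, the delta subunit of the sarcoglycan group, was at 8.10, 7.95 and 7.96 on the deficient diet, below all sufficient arrays (-0.19 ± 0.07, unadjusted p = 0.0181, adjusted p = 0.959 in limma). Sgcb, the beta subunit, was at 10.15, 10.09 and 10.31 in LRAT_VAS and 9.94, 9.79 and 10.02 in LRAT_VAD. These groups did not overlap either, with a difference of -0.27 ± 0.12 (limma, unadjusted p = 0.0504, adjusted p = 0.959). Dmd was at 8.07, 7.89 and 8.02 on the deficient diet, just below the sufficient arrays, by -0.12 ± 0.07 (limma, adjusted p = 0.959), and by -0.07 without LRAT_VAD array 2.

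Sgca, the alpha subunit and the one most confined to striated muscle, went the other way. It was at 10.94, 11.12 and 10.83 in LRAT_VAS and 11.23, 11.44 and 11.14 in LRAT_VAD, where every array was higher (0.31 ± 0.13; limma, unadjusted p = 0.0420, adjusted p = 0.959). Wild type, at 11, 11.06 and 11.42, overlapped both groups. Alpha and beta therefore differed in opposite directions, and across the 9 arrays they ran against each other as well, with a Pearson correlation of -0.820, and -0.899 once each group was centred on its mean. The array highest for Sgca within a group was the lowest for Sgcb in each of the 3 groups. Anxa6 ran against Sgcb at -0.917 and with Sgca at 0.778, or -0.844 and 0.773 after centring. These are descriptions of 36 pairs of genes on the same 9 arrays, read without a test.

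For diet 0 of the 9 genes passed in limma, as did 0.0% of all genes (lowest adjusted p over all genes 0.451). At an unadjusted p under 0.05 it was 3 of 9, 1 higher (Sgca) and 2 lower (Dag1 and Sgcd), against 4.38% of all genes, 2.3% higher and 2.07% lower. Groups without overlap were found for 5 of 9, 1 higher and 4 lower, against 9.67% of all genes, 4.72% higher and 4.94% lower. The median over the 9 genes was -0.06, beside -0.0015 over all genes. The replicate numbers of the 2 groups labelled Lrat-/- deviate together, and with them as a block in those 2 groups 0 of 9 passed as well (limma, lowest adjusted p = 0.457). The authors' deposited table gives diet ratios of 0.851 for Dag1, 0.863 for Sgcb, 0.878 for Dmd, 0.916 for Sgcd, 1.15 for Anxa6 and 1.18 for Sgca, and in that deposited table the p-value was lowest for Dmd (0.0290) and Anxa6 (0.0330).

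The LRAT_VAD arrays were also set against wild type on the sufficient diet, a comparison that shares its arrays with both others. Of the 8 genes besides Trim72 0 passed in limma, against 0.13% of all genes. Sgcd had the lowest p, at -0.27 ± 0.07 (unadjusted p = 0.00213, adjusted p = 0.235), followed by Dag1 at -0.35 ± 0.11 (adjusted p = 0.426) and Sgcb at -0.29 ± 0.12 (adjusted p = 0.529). Without wild-type array 1 Dag1 was at -0.20 and Sgcb at -0.17. These 3 were the genes with an unadjusted p under 0.05, all lower, against 9.04% of all genes and 5.3% lower. Groups without overlap were found for 3 of the 8, Sgcd, Dag1 and Dmd, all lower, against 11.5% of all genes and 6.39% lower. Dysf (0.15 ± 0.10), Cav3 (0.07 ± 0.12), Sgca (0.11 ± 0.13) and Anxa6 (0.13 ± 0.08) were higher, and Dmd was lower (-0.15 ± 0.07). Leaving out 1 array gave 0.08 (without wild-type array 2) to 0.24 (without wild-type array 1) for Dysf and 0.02 (without LRAT_VAD array 2) to 0.24 (without wild-type array 3) for Sgca, and the mean of both probe sets gave 0.01 for Anxa6.

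Markers of other cells and of the atrium differed between the diets too. Smooth muscle and pericyte markers averaged 9.0 to 9.24 on LRAT_VAS arrays and 8.78 to 8.93 on LRAT_VAD arrays, with all 8 lower. Acta2 had the largest difference of that list, at -1.27 ± 0.35 for diet and 1.23 ± 0.35 for genotype. For genotype the list was split, with 4 higher, 4 lower and a median of 0.04, and Rgs5 was at -0.20 ± 0.08. On the deficient diet all 6 atrial markers were higher than in LRAT_VAS (6.94 to 7.26 against 7.28 to 7.38). The same was true of all 7 adipocyte markers, Adipoq among them (5.62 to 5.97 against 5.97 to 6.65). All 7 adipocyte markers and 3 atrial ones (Sln, Bmp10 and Fgf12) lay under 7.53. Endothelial markers averaged 9.33 to 9.80 in wild type, 9.24 to 9.54 in LRAT_VAS and 9.16 to 9.36 in LRAT_VAD, while fibroblast markers averaged 9.75 to 9.92 in LRAT_VAS and 9.61 to 9.88 in LRAT_VAD. Of these genes 0 passed for diet in limma. Their part in the differences of Sgca, Sgcb, Sgcd and Dag1 was not tested.

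The rest of the dystrophin complex was read from a list of 18 further genes, all measured, of which 0 passed in any of the 3 comparisons. For genotype on the sufficient diet 15 of 18 were lower, with a median of -0.07, and for diet 12 of 18, with a median of -0.04. For diet 1 of 18 had an unadjusted p under 0.05, a lower gene, against 4.38% of all genes and 2.07% lower. It was sarcospan (Sspn), the small membrane protein that sits with the sarcoglycans, at -0.46 ± 0.17 (limma, adjusted p = 0.959). Sgce, the epsilon sarcoglycan of many tissues, was at -0.14 ± 0.09 for diet and -0.15 ± 0.09 for genotype. Agrin (Agrn), a matrix ligand of dystroglycan, was at -0.16 ± 0.11 for genotype and dim, under 7.53. Against wild type, 16 of 18 were lower on the deficient diet, with a median of -0.14.

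Dystroglycan binds laminin only after sugars are added by a chain of enzymes, 16 of which were measured, and 0 passed. Pomt1, which starts the chain, was lower in LRAT_VAS than in wild type (-0.25 ± 0.08; limma, adjusted p = 0.562) and higher on the deficient diet (0.28 ± 0.08; limma, adjusted p = 0.959). The medians of the list were -0.03 in both comparisons.

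Of 28 other membrane repair genes, from annexins to the calpains and the vesicle scission proteins, 0 passed, and 0 had an unadjusted p under 0.05 for genotype or diet. Anxa1, an annexin that binds injured membrane, was at -0.39 ± 0.20 for genotype and 0.28 ± 0.20 for diet, and Anxa7 at -0.20 ± 0.09 and 0.08 ± 0.09. Fer1l5, a relative of dysferlin, was at 0.15 ± 0.07 for genotype and lay under 7.53. The 9 further caveola genes were lower in 8 of 9 cases for genotype (median -0.14), with Ehd2, an ATPase at the neck of caveolae, at -0.21 ± 0.10 and Cav2 at -0.20 ± 0.10, and again 0 passed. Against wild type 8 of 9 were lower on the deficient diet too, 4 of them with an unadjusted p under 0.05. Over all genes that share was 9.04%, and 5.3% for lower genes. Those genes are also abundant in endothelium. All 9 endothelial markers were lower in LRAT_VAS than in wild type (Vwf at -0.54 ± 0.18) and in LRAT_VAD than in wild type (Vwf at -0.47 ± 0.18), with 0 past the threshold in either. The part of endothelial cells in the caveola values was not tested.

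Genes reported to act with Trim72 protein, as targets of its ligase or as conjugating enzymes, gave 0 of 7 past the threshold. The insulin receptor gene Insr was at -0.37 ± 0.16 between diets (limma, unadjusted p = 0.0421, adjusted p = 0.959) and 0.08 ± 0.16 for genotype, and Irs1 at -0.21 ± 0.15 and -0.06 ± 0.15. Among 4 other muscle ligases of the same family 0 passed, with Trim63, which marks sarcomere proteins for breakdown, at -0.41 ± 0.13 for genotype (limma, adjusted p = 0.549).

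The integrin and vinculin link, a second anchor of the sarcolemma, was represented by 23 genes. Between diets 21 were lower and 2 higher, with a median of -0.12, and 0 passed. Desmin (Des), the intermediate filament of muscle, was among the higher, at 0.27 ± 0.11 (limma, adjusted p = 0.959), and differed by -0.32 ± 0.11 for genotype. Vinculin (Vcl) was at -0.18 ± 0.08 for diet and syncoilin (Sync), which binds desmin, at -0.23 ± 0.12. Against wild type all 23 were lower on the deficient diet, with a median of -0.17 and 0 past the threshold, beside a median of -0.00071 over all genes. In the same comparison all 12 cardiomyocyte markers were lower (median -0.06), as were 9 of 9 endothelial markers (median -0.35) and 8 of 9 fibroblast markers (median -0.20), each list with 0 past the threshold. Their part in the values of the 23 genes was not tested.

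**Figure D3:**
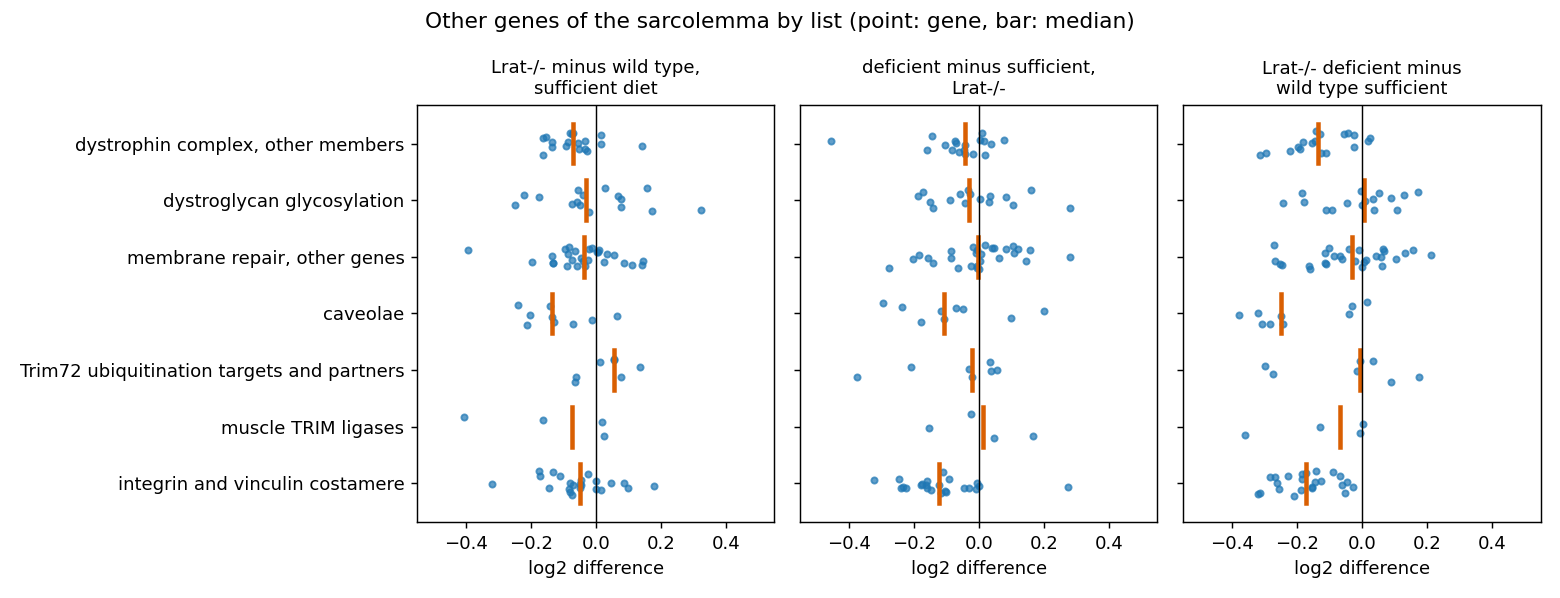
Log2 differences (horizontal axes) of the genes of 7 lists in 3 comparisons. Each point is a gene and each bar the median of its list. The largest shift of a median between diets is that of the integrin and vinculin genes, at -0.12, and of the 7 lists 0 genes passed the threshold.

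Genes next to Trim72 on chromosome 7 were read in the order of a GRCm38 gene table, 50 protein-coding genes on each side, of which 92 were measured. For genotype 0 of the 92 passed in limma, and 5 had an unadjusted p under 0.05, which is 5.44% against 6.91% of all genes. A difference of 0.3 or more in size was seen for 5 of the 92, Pycard and Itgam, the genes on either side of Trim72, among them. The share of all genes at that size was not counted, so these 5 are not read as an excess. Pycard, an adaptor of the inflammasome and the next gene on one side, was at 7.25, 7.55 and 7.44 in wild type, 7.91, 7.68 and 7.97 in LRAT_VAS and 7.70, 7.64 and 7.98 in LRAT_VAD. It was higher in LRAT_VAS by 0.44 ± 0.12 without overlap (limma, unadjusted p = 0.00515, adjusted p = 0.436).

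Itgam, an integrin of myeloid cells and the next gene on the other side, was at 7.54, 7.46 and 7.45 in wild type, 7.28, 6.88 and 6.92 in LRAT_VAS and 7.02, 7.08 and 7.17 in LRAT_VAD. It was lower in LRAT_VAS by -0.46 ± 0.11 (limma, unadjusted p = 0.00167, adjusted p = 0.282) and passed without LRAT_VAS array 1 (-0.59, limma, adjusted p = 0.0466). Its signal is mostly under 7.53, while 8 macrophage markers averaged 9.16 to 9.32 in wild type and 9.09 to 9.44 in LRAT_VAS. Itgax, the gene after Itgam, differed by -0.07 ± 0.08 and was dim, at 5.43 to 5.75.

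Between diets these neighbours differed by -0.08 (Pycard), 0.06 (Itgam) and -0.05 (Itgax), each with an adjusted p of 0.973 in limma. No gene of the GRCm38 table overlaps Trim72. Cpxm2, the gene with the largest difference among the 92 (-1.05, limma, adjusted p = 0.686), lies 40 genes away and was singled out after its value was seen.

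**Figure D4:**
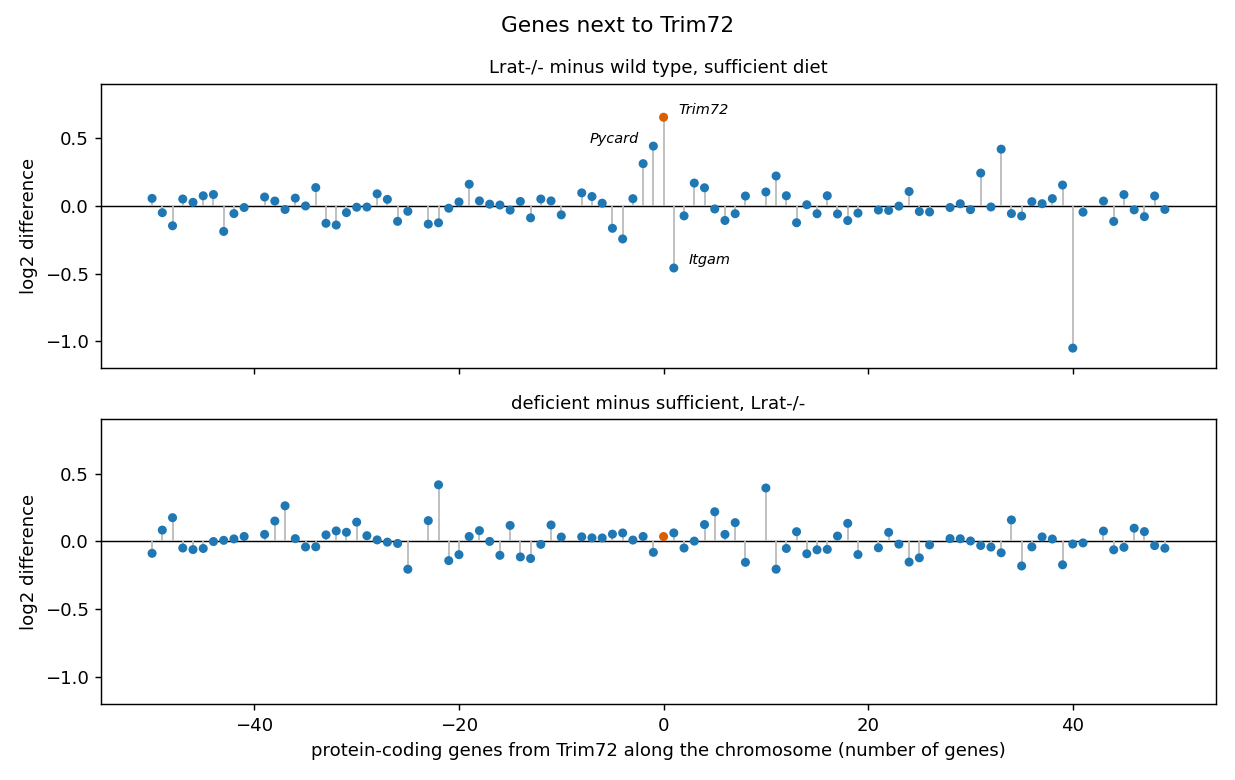
Log2 difference (vertical axes) of Trim72 (orange) and the 92 measured genes among its 50 neighbours on each side (blue), by the number of protein-coding genes from Trim72 (horizontal axis). The upper panel is genotype on the sufficient diet, where Pycard lies at 0.44 and Itgam at -0.46, and the lower panel is diet.

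The genes whose pattern was most like that of Trim72 over the 9 arrays were sought among 2200 genes with a mean of at least 7 and a standard deviation of at least 0.2. Trim72 differs mainly between the genotype labels, so this search favours genes that differ between the same labels. By Pearson correlation they were Pkig, an inhibitor of protein kinase A (0.975), the zinc finger gene Zfp943 (0.969), Atp5e, a subunit of ATP synthase (0.958), Rerg, a Ras-related gene (0.954), and Lgr6, a receptor of R-spondins (0.943). Centred within groups these became 0.661, 0.711, 0.541, 0.338 and -0.423. At the other end were Hal of histidine breakdown (-0.983), Zfp945 (-0.959), Gdpd3, a lysophospholipase D (-0.957), the lysosomal Hgsnat (-0.951) and Jpt2 (-0.941). After the same centring they were at -0.897, -0.423, 0.219, -0.680 and -0.527, so Gdpd3 changed sign. Some of these genes met the minimum mean through one genotype label only. Hal (means of 9.75, 5.93 and 5.87 in WT_VAS, LRAT_VAS and LRAT_VAD) and Gdpd3 (12.1, 6.32 and 6.13) met it through wild type. Lgr6 (6.67 in wild type) and Rerg (6.32 in wild type) met it through the label Lrat-/-. Zfp945 (7.77, 7.02 and 7.03) was above 7 in each group. Hal, Gdpd3 and Zfp945 lay under 7.53 in both groups labelled Lrat-/-, Lgr6 in wild type and Rerg in all 3 groups. Among the 9 genes themselves Dysf was nearest to Trim72 over all arrays (0.655), while within groups it was Cav3 (0.857, and 0.399 over all arrays). The points share arrays, and no test was made.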

How the data were processed

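The values are log2 signals per probe set that the authors deposited, made with RMA per the submitters' processing notes, which also name R 3.1.2 and build mm8 without their roles; the log2 scale was read from the values. The authors' deposited table gave ratios between groups and p-values, by a method not given in the sources used here. A further table has 9 value columns under scan codes that match no label; they were not used, only its marks of negative controls. Of 35556 probe sets 26107 carried a symbol, which gave 23037 genes: 23034 probe sets kept the symbol as written, 1355 were renamed by synonym and 249 by accession of a GRCm38 table, and 1469 are not in it.

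limma 3.58.1 in R 4.3.3 fitted 1 mean per group over all 9 arrays, with eBayes, two-sided tests and a threshold of 0.05 on Benjamini-Hochberg adjusted p-values over the whole table of genes, checked on simulated data. Values after ± are SE for differences and SD for means. The members and lists were chosen with earlier results of these data known. From each list the text names up to 4 genes by lowest p for genotype or diet. Some genes this rule names are not reported here. Alternatives were a replicate block, other normalizations, filters, weights and probe set rules, and each array left out. Same-numbered arrays of the 2 groups labelled Lrat-/- deviated together (correlations of 0.212 to 0.264), and those of wild type did not with both. No label says that the numbers pair arrays, so a pairing is not established. Tables and plots used Python 3.11.15 with pandas 2.3.3 and matplotlib 3.10.9.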

Additional observations from a re-analysis of the deposited data

How the results depend on the processing

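Trim72 against wild type lay between 0.55 and 0.73 on the sufficient diet and between 0.56 and 0.77 on the deficient diet over all 20 alternatives each. Several of these could not move the estimate: the replicate block, only the 2 groups compared, the eBayes setting, the probe set rules and the mean filters. The same holds for leaving out an array of the group not compared. The counts of the other 8 genes (genotype, and genotype with diet) and of all 9 (diet) past the threshold stayed at 0 under every alternative run, the replicate block included. With that block over all 9 arrays the Dag1 diet difference stayed at -0.29, which the balanced design fixes in advance. The block changed no call among these genes. Over all genes 31 passed for genotype, 5 with only the 2 groups compared and 11 to 109 without 1 array (removing WT_VAS array 3 gave 109, WT_VAS array 1 gave 15; the count was 11 without LRAT_VAS array 2 or 3, and 14 or 15 without any 1 of the LRAT_VAD arrays). For genotype and diet together 30 passed, 7 with only 2 groups, 76 with array weights, and 11 to 284 without 1 array (removing WT_VAS array 3 gave 284, WT_VAS array 1 gave 15; the count was 11 to 14 without any 1 of the LRAT_VAD arrays). For genotype near 0, signs turned after quantile normalization again for Dmd (0.0012), Sgcb (0.0047) and Anxa6 (0.033), with array weights for Dag1 (0.00012) and Anxa6 (0.0022), and after median centring for Anxa6 (0.0097). In the authors' deposited ratios Cav3 turned in all 3 comparisons (log2 -0.018, -0.0033 and -0.021). Without 1 array the genotype difference ran from -0.085 to 0.17 for Cav3, -0.066 to 0.0049 for Dmd, -0.12 to 0.10 for Sgcb, -0.13 to 0.087 for Dag1 and -0.037 to 0.059 for Anxa6. The diet difference ran from -0.014 to 0.086 for Trim72 and -0.010 to 0.19 for Itgam, and genotype with diet from -0.045 to 0.21 for Cav3. The cause was not tested. With 3 arrays a group the number of arrays limits the precision.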
